A study of Mus musculus with 4 samples.

Results

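Early-response transcription factors were followed in natural killer (NK) cells, innate lymphocytes that kill infected or transformed cells. The set comprised 10 genes taken by symbol: Egr1, Egr2, Egr3, Nr4a1, Nr4a2, Nr4a3, Klf4, Klf6, Ier2 and Ier5. Each symbol matched 1 row of the deposited tables, so 10 of 37310 genes were members, and all 10 were among the 13904 genes that passed a filter on low counts. The animals were C57BL/6 mice, 6 to 8 weeks old, whose marrow was sorted for CD3e-NK1.1+CD49b+ cells into Trizol before Smart-seq2 library construction. The 4 libraries form 2 groups of 2 biological replicates: littermate controls (Ctrl), whose alleles the labels do not describe further, and Gabpb1l-/-Gabpb2-/- mice (dKO). The dKO mice lack Gabpb2 and a form of Gabpb1 written Gabpb1l, so that the GABPα2β2 tetramer, an Ets-family transcription factor complex, cannot form. The labels name no Cre driver, sex, batch or stimulus.

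Early-response genes are transcribed within minutes of a stimulus without new protein synthesis, mostly through serum response factor with its Ets-family partners and through CREB. EGR factors are zinc finger proteins that follow receptor and ERK signals. NR4A factors are orphan nuclear receptors that follow antigen receptor, calcium and cAMP signals and can restrain lymphocyte activation. KLF4 and KLF6 are zinc finger factors that bind GC-rich boxes, and KLF4 is known for holding lymphocytes out of division and for monocyte differentiation. IER2 and IER5 are small nuclear proteins encoded by immediate early genes.

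The depth was 34724516 and 33299226 gene counts in Ctrl against 31469644 and 30233870 in dKO. The genes detected numbered 15921 and 18206 in Ctrl against 19450 and 19220 in dKO, and reads outside genes were 18.1% and 21.5% of counted reads in Ctrl against 23.8% and 24.3% in dKO. All 3 measures separated the groups without overlap, and their part in the differences below was not tested. Gabpb2 counts were 1244 and 1009 in Ctrl against 85 and 86 in dKO, lower in both libraries labelled dKO. The count over the whole Gabpb1 gene does not check its Gabpb1l allele. The NK genes Ncr1 (1391 to 1795 CPM, counts scaled by library size) and Klrb1c (1438 to 1896 CPM) were high in every library. The libraries also separated by sex-linked RNA, since Xist counts were 6066 and 6430 in Ctrl against 2 and 9 in dKO, and Ddx3y had 0 counts in Ctrl against 8933 and 6757 in dKO. Genotype and sex therefore cannot be told apart in any comparison here. The CD3e- sort still held some Cd3e RNA, at 47.5 and 52.5 CPM in Ctrl against 8.90 and 12.2 CPM in dKO. Among the marker lists of B lineage cells, neutrophils, dendritic cells, erythroid cells, basophils and mast cells, innate lymphoid cells and NK cells themselves, 0 genes were called in each list. Of the NK markers, 8 of 10 had negative log2 fold changes and 7 of 10 were lower in both dKO libraries without overlap, against 19.9% of all tested genes, and their summed level was 15012 and 14823 CPM in Ctrl against 11631 and 11946 CPM in dKO. All 10 B lineage markers had negative log2 fold changes. Of 10 neutrophil and precursor markers, 9 had negative log2 fold changes, with a median of -0.18. In 3 of the 10 both dKO libraries were lower without overlap, against 19.9% of all tested genes. These were the precursor genes Mpo, Elane and Prtn3, picked out after their values were seen. Their log2 fold changes were -1.97, -1.99 and -1.75 (edgeR adjusted p = 0.155, 0.112 and 0.284). Mpo was at 348 CPM in Ctrl 1 but 104 CPM in Ctrl 2, against 59.7 and 55.5 CPM in dKO.

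Sequences before the start sites of the members are shown because CREB and serum response factor are known to act on early-response genes there. RefSeq windows on GRCm38.p6 were found for 7 of the 10 members; Egr1, Egr3 and Ier2 had no entry. Stretches before the start site are printed for Egr2 (chr10:67537619-67537868, plus strand), Nr4a1 (chr15:101266596-101266845, plus strand), Nr4a2 (chr2:57124004-57124253, minus strand), Nr4a3 (chr4:48045055-48045152, plus strand) and Klf4 (chr4:55532476-55532725, minus strand). Capitals mark the core of the cAMP response element, TGACG on either strand, and the CArG box bound by serum response factor. The Nr4a3 stretch ends where a GENCODE exon begins and shows 3 of its 4 matches, and Egr2 is shown at 1 of its 5 listed start sites, 3 of which hold the same marked matches.
Egr2: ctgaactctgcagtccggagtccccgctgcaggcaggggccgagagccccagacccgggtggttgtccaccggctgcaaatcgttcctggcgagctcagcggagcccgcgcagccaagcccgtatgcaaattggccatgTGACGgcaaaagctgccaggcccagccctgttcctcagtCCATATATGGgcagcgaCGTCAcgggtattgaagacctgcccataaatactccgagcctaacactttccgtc
Nr4a1: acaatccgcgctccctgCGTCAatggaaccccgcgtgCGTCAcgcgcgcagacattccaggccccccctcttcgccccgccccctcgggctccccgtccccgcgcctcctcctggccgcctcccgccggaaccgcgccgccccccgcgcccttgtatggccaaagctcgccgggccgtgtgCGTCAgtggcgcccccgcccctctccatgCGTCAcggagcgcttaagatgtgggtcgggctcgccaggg
Nr4a2: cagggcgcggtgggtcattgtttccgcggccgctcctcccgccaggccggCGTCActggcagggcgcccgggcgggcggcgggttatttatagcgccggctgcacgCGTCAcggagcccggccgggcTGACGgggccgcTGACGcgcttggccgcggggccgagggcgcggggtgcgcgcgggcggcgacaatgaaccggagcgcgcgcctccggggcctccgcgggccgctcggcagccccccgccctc
Nr4a3: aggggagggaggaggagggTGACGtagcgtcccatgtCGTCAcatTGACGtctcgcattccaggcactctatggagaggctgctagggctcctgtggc
Klf4: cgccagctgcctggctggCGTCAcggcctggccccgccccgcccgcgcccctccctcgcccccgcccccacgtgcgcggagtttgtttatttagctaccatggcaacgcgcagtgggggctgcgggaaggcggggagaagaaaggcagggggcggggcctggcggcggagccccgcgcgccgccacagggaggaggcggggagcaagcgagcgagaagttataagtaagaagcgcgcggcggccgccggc

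All 3 NR4A genes held 4 matches to TGACG in the 250 bases before the start site, against 0.137% of 32841 mouse windows of this length that held at least 4. In Nr4a1 they lay at -233, -213, -69 and -40 from the start site (left end of each match), in Nr4a2 at -200, -144, -123 and -111, and in Nr4a3 at -231, -213, -205 and -147. The Nr4a3 match at -147 lies inside a GENCODE exon, and 0.688% of windows held at least 3 matches. The windows of Nr4a1, Nr4a2 and Nr4a3 were 74.4%, 80% and 63.6% GC, and the mouse windows were not matched to them for GC. Egr2 held a CArG box at -72, a motif found in 1.47% of windows, with TGACG at -111 and -55. Klf4 held 1 TGACG match, 5 matches to the KLF and Sp box GGGNGGGG, which 30.8% of windows contain, and 1 EGR site GCGGGGGCG (2.57% of windows), 2 of these boxes overlapping each other and 1 overlapping the EGR site. Nr4a1 also held an EGR site, at -60, which overlapped 1 of its 2 KLF and Sp boxes. Klf6 and Ier5 held no match to any motif searched. The Ets sequence CCGGAAGT of the GABP type, present in 2.88% of windows, had no match in the 7 members' windows. Other motifs searched on both strands without a match were TGACGTCA, TGANTCA, GCGTGGGCG and AAAGGTCA, present in 1.55%, 6.75%, 0.536% and 1.34% of windows. A match describes letters and does not show that a factor binds there. By the GENCODE annotation on GRCm38, the genes are Egr2 (ENSMUSG00000037868) on chromosome 10 from 67535475 to 67542188, Egr3 (ENSMUSG00000033730) on chromosome 14 from 70077203 to 70082614, Nr4a1 (ENSMUSG00000023034) on chromosome 15 from 101254269 to 101274795 and Nr4a2 (ENSMUSG00000026826) on chromosome 2 from 57106830 to 57124003. The remaining ones are Nr4a3 (ENSMUSG00000028341) on chromosome 4 from 48045153 to 48086447, Klf6 (ENSMUSG00000000078) on chromosome 13 from 5861482 to 5870394, Ier2 (ENSMUSG00000053560) on chromosome 8 from 84661331 to 84662852 and Ier5 (ENSMUSG00000056708) on chromosome 1 from 155096361 to 155099636. No other annotated gene overlaps any of the 10.

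**Figure D1:**
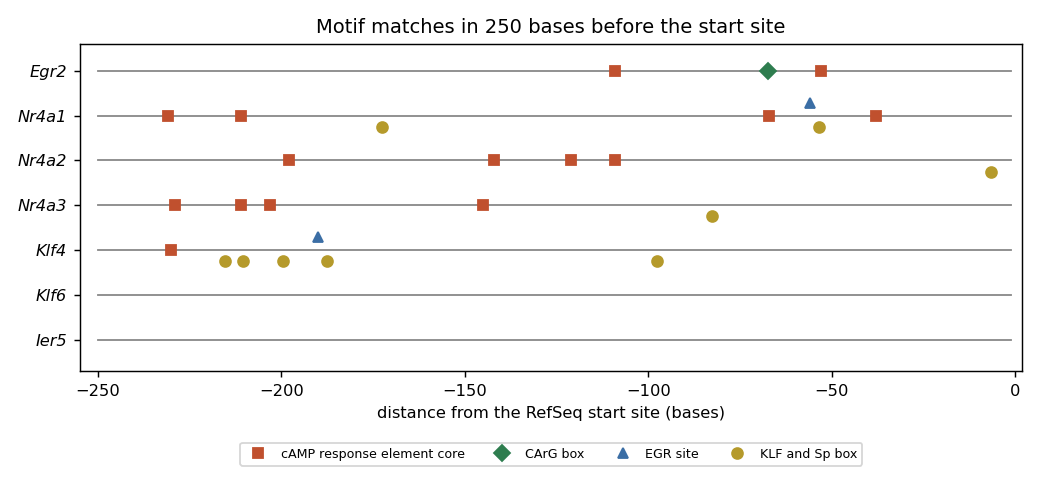
Motif matches in the 250 bases before the RefSeq start site of 7 members, with the distance from the start site in bases on the horizontal axis and 1 line per gene. Squares are TGACG on either strand, diamonds the CArG box, triangles the EGR site GCGGGGGCG and circles the KLF and Sp box; each NR4A gene carries 4 squares, and Klf6 and Ier5 carry no symbol.

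The order of the members by level was taken only from the length-scaled TPM values of the authors. Ier2 was the highest member, from 536.95 to 814.57 TPM over the 4 libraries, followed by Klf6 from 181.68 to 227.61 TPM and Egr1 from 28.4 to 54.91 TPM, and the ranges of these 3 did not overlap. Ier5 (13.22 to 31.55 TPM), Egr2 (9.65 to 17.66 TPM), Nr4a1 (9.98 to 15.03 TPM) and Nr4a2 (9.74 to 12.22 TPM) formed a middle group in which each range overlapped that of the next, and the range of Ier5 also reached into that of Egr1. Below them came Nr4a3 (2.64 to 7.82 TPM), Klf4 (0.59 to 2.57 TPM) and Egr3 (0.08 to 1.46 TPM), the last 2 with overlapping ranges. The TPM stand in the RSEM tables, which also hold expected counts. The whole-number count was 3.23 to 5.56 times the expected count for Klf4, 3.04 to 4.69 times for Nr4a2 and 2.29 to 6 times for Egr3. The library medians were 2.05 to 2.07, as given further below. The places of Klf4, Nr4a2 and Egr3 therefore hold for TPM only.

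**Figure D2:**
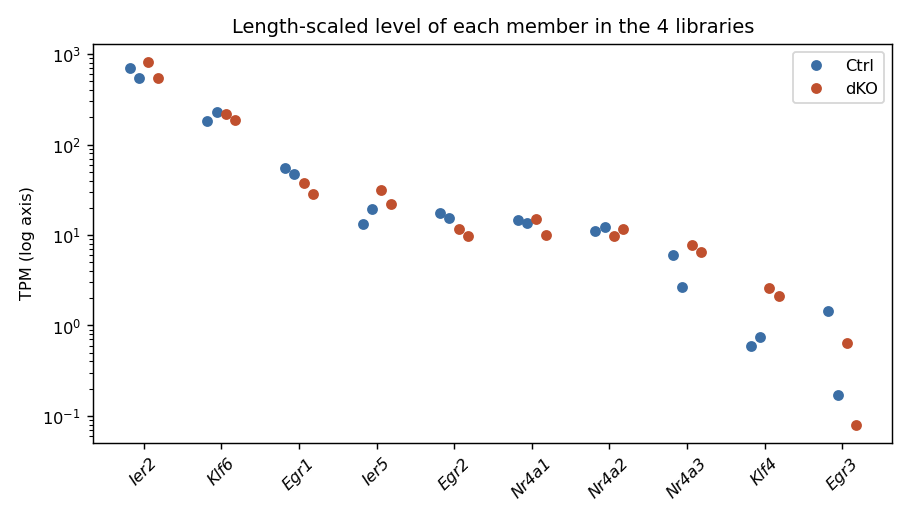
TPM of each member on a log axis, ordered by its mean over the 4 libraries, with 1 point per library (blue Ctrl, red dKO). Ier2 and Klf6 lie above all other members in every library, and Klf4 and Egr3 lie lowest.

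Between the genotypes the set moved in no common direction. Klf4 rose in dKO, and no member fell: 1 of 10 was called higher and 0 of 10 lower (edgeR quasi-likelihood test, Benjamini-Hochberg adjusted p under 0.05 over all tested genes), against 0.316% of all tested genes called higher, 0.295% called lower and 0.611% in either direction. Of the fitted log2 fold changes of dKO minus Ctrl, 5 were positive and 5 negative, with a median of 0.02 over the members and 0.01 over all tested genes. At an unadjusted p under 0.05 the members numbered 5 of 10 (Egr1, Egr2, Nr4a3, Klf4 and Ier5), against 10.6% of all tested genes. The Ctrl and dKO libraries did not overlap for those same 5 members, 3 higher and 2 lower in dKO, and the corresponding shares of all tested genes were 21.7% and 19.9%, or 41.6% in either direction. In sorted cells measured in bulk, a change in the number of expressing cells and a change in RNA per cell cannot be told apart.

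**Figure D3:**
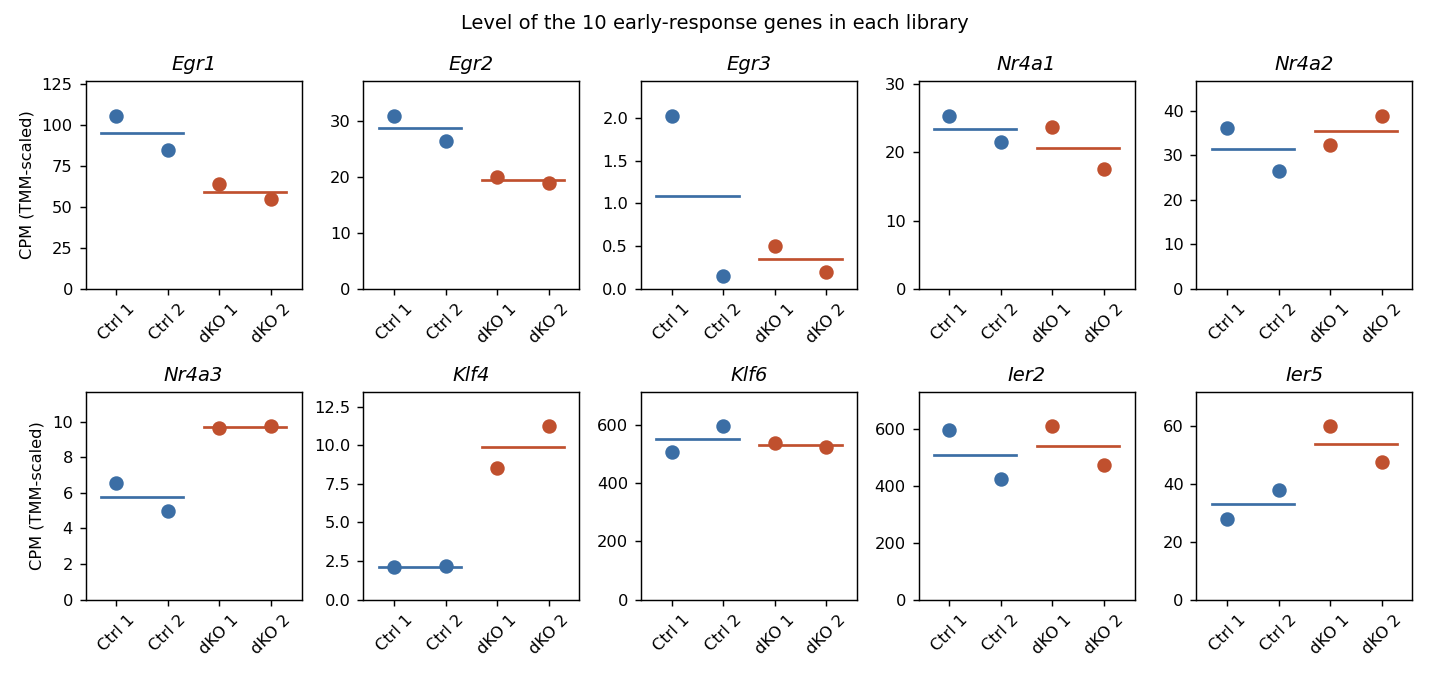
TMM-scaled CPM of each member in the 4 libraries (points, blue Ctrl and red dKO) with the group mean as a line; each panel has its own axis from 0. Klf4, Nr4a3 and Ier5 are higher in both dKO libraries, and Egr1 and Egr2 are lower in both.

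Klf4 (ENSMUSG00000003032, chromosome 4 from 55527143 to 55532466 on GRCm38) had 71 counts in each Ctrl library against 274 and 339 counts in dKO. Scaled to CPM it was at 2.09 and 2.14 in Ctrl against 8.53 and 11.2 in dKO. Both dKO libraries thus lay well above the 2 nearly equal Ctrl libraries. The mean rose from 2.11 ± 0.0383 to 9.87 ± 1.90 CPM (SD, n = 2 per group), a log2 fold change of 2.22 (SE 0.35, 95% interval 1.42 to 3.02, edgeR adjusted p = 0.0386). The authors' TPM ran the same way, at 0.59 and 0.75 in Ctrl and 2.57 and 2.11 in dKO. The call was lost when Ctrl replicate 1, or either dKO replicate, was left out (edgeR adjusted p = 0.0646, then 0.0519 and 0.160), with limma-voom (0.0534), or with the RSEM expected counts (log2 fold change 1.81, adjusted p = 0.161), although the log2 fold change stayed between 1.81 and 2.41 in all 14 alternatives and passed in 9 of them.

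Klf4 is also a monocyte gene, so the monocyte and macrophage markers are given beside it. Of 9 markers found, 0 were called, none was at 0 in every library, and their summed level was 3660 and 3964 CPM in Ctrl against 3800 and 4429 CPM in dKO, with overlapping groups. That sum was led by Lyz2 and by Ccr2, which was at 2065 and 2173 CPM in Ctrl against 2454 and 2607 CPM in dKO. Ly6c2, a marker of inflammatory monocytes, was lower in both dKO libraries, at 347 and 349 CPM in Ctrl against 104 and 187 CPM in dKO (log2 fold change -1.26, unadjusted p = 0.00117, edgeR adjusted p = 0.0994). The colony-stimulating factor receptor gene Csf1r was at 30.0 and 37.6 CPM in Ctrl against 27.1 and 41.5 CPM in dKO. Of 6 markers of dividing cells, 1 fell (Tyms), against 0.295% of all tested genes called lower. All 6 had negative log2 fold changes, with a median of -0.85. An unadjusted edgeR p under 0.05 was found for 5 of the 6, against 10.6% of all tested genes. In 5 of the 6 both dKO libraries were lower without overlap, against 19.9% of all tested genes. None was at 0 in every library, and the summed level was 704 and 484 CPM in Ctrl against 250 and 392 CPM in dKO. The part of the monocyte and dividing cell markers in the Klf4 difference was not tested.

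The 2 deposited count types differed for Klf4. For most genes the whole-number count was about 2.05 to 2.07 times the RSEM expected count (median per library over genes with more than 50 expected counts). For Klf4 the ratio was 3.74 and 3.23 in Ctrl and 3.91 and 5.56 in dKO, from 19, 22, 70 and 61 expected counts. Nr4a2 had ratios of 4.23 and 3.04 in Ctrl and 4.69 and 4.58 in dKO, above the 98th percentile of those genes in each library. Egr1, Egr2, Klf6, Ier2 and Ier5 lay between percentiles 17.0 and 57.6. Nr4a1 lay between percentiles 84.1 and 89.2, Nr4a3 between 89.5 and 94.4, and the scarce Egr3 between 82.0 and 99.8. All 3 NR4A genes, Klf4 and Egr3 thus had ratios in the upper part of the range in every library, and the cause was not tested. Egr3 had only 19 and 2 expected counts in Ctrl and 7 and 1 in dKO. Egr3, and Klf4 in Ctrl, thus lay below the 50 expected counts required of the genes that set the percentiles. Their ratios rest on few counts, so their places in that range are uncertain.

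Klf6, a factor close to Klf4 in its DNA-binding fingers and far more abundant, was not called. It was at 507 and 597 CPM in Ctrl against 538 and 527 CPM in dKO, and both dKO values lay between the Ctrl values. Its log2 fold change was -0.05 (SE 0.15, 95% interval -0.40 to 0.30, edgeR adjusted p = 0.952), an interval that ends below that of Klf4.

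Egr1 and Egr2 were lower in both dKO libraries without a call. Egr1 (ENSMUSG00000038418, chromosome 18 from 34859823 to 34864984), the most abundant EGR factor here, was at 105.6 and 84.7 CPM in Ctrl against 63.8 and 54.6 CPM in dKO. Both dKO libraries were below both Ctrl libraries, with a log2 fold change of -0.68 (SE 0.19, 95% interval -1.12 to -0.25, unadjusted p = 0.00670) that did not pass over all genes (edgeR adjusted p = 0.222). Without the filter on low counts it did pass (edgeR adjusted p = 0.0265), in a fit that called 559 genes in place of 85. Over the 14 alternatives its log2 fold change lay between -0.83 and -0.52.

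Egr2, which with Egr1 and Egr3 is induced by antigen receptors in T cells, was at 30.9 and 26.4 CPM in Ctrl against 19.9 and 18.9 CPM in dKO. The groups did not overlap, and the log2 fold change of -0.56 (SE 0.22, 95% interval -1.06 to -0.07) did not pass (edgeR adjusted p = 0.409). Egr3 was scarce and uneven: it had 69 counts in Ctrl 1 but 5 in Ctrl 2, 16 in dKO 1 and 6 in dKO 2. Its fitted log2 fold change of -1.63 (SE 1.25, edgeR adjusted p = 0.734) rested on Ctrl 1 and became 1.19 without it.

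T cell markers are given beside the EGR genes because T cells carry these factors after stimulation. Of 10 T cell markers tested, 2 fell (Cd3e and Trac) and 0 rose, against 0.295% of all tested genes called lower and 0.316% called higher. Negative log2 fold changes were found for 9 of the 10, with a median of -1.495, and none was at 0 in every library. In 8 of the 10 both dKO libraries were lower without overlap, against 19.9% of all tested genes. The summed level of the 10 was 952 and 871 CPM in Ctrl against 774 and 686 CPM in dKO. That sum was led by Trbc1 and Trbc2, whose log2 fold changes were 0.22 and -0.37. The part of the T cell markers in the EGR values was not tested.

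Among the NR4A receptors, Nr4a3 was the 1 gene whose groups did not overlap. It was at 6.55 and 4.97 CPM in Ctrl against 9.65 and 9.73 CPM in dKO, so that the dKO libraries were nearly equal and above both controls. The log2 fold change of 0.75 (SE 0.31, 95% interval 0.04 to 1.46, unadjusted p = 0.0411) did not pass over all genes (edgeR adjusted p = 0.441).

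Nr4a1, which encodes Nur77 and is often used to report antigen receptor signals, was at 25.4 and 21.6 CPM in Ctrl against 23.7 and 17.5 CPM in dKO. Nr4a2, which encodes Nurr1, was at 36.2 and 26.6 CPM in Ctrl against 32.3 and 39.0 CPM in dKO. For both the groups overlapped, with log2 fold changes of -0.19 (95% interval -0.75 to 0.38) and 0.18 (95% interval -0.35 to 0.71) and edgeR adjusted p of 0.863 and 0.858. The direction of Nr4a1 turned without dKO replicate 2 (log2 fold change 0.012), and that of Nr4a2 turned without Ctrl replicate 2 (-0.021) and with the RSEM expected counts (-0.14). The 3 NR4A genes had 2 positive and 1 negative fold changes, none of them called. Each held 4 TGACG matches in its RefSeq window, and a link between the matches and the fold changes was not tested.

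Of the IER genes, Ier5, which is known to take part in heat shock factor regulation, was at 27.8 and 37.9 CPM in Ctrl against 59.7 and 47.4 CPM in dKO. Both dKO libraries were above both controls, and the log2 fold change of 0.71 (SE 0.23, 95% interval 0.18 to 1.23, unadjusted p = 0.0151) did not pass (edgeR adjusted p = 0.312). Ier2 was at 595 and 424 CPM in Ctrl against 609 and 473 CPM in dKO. Its replicates differed more than its groups (log2 fold change 0.09, 95% interval -0.39 to 0.56, edgeR adjusted p = 0.935), and its sign turned without Ctrl replicate 2 (-0.14) or dKO replicate 1 (-0.11).

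**Figure D4:**
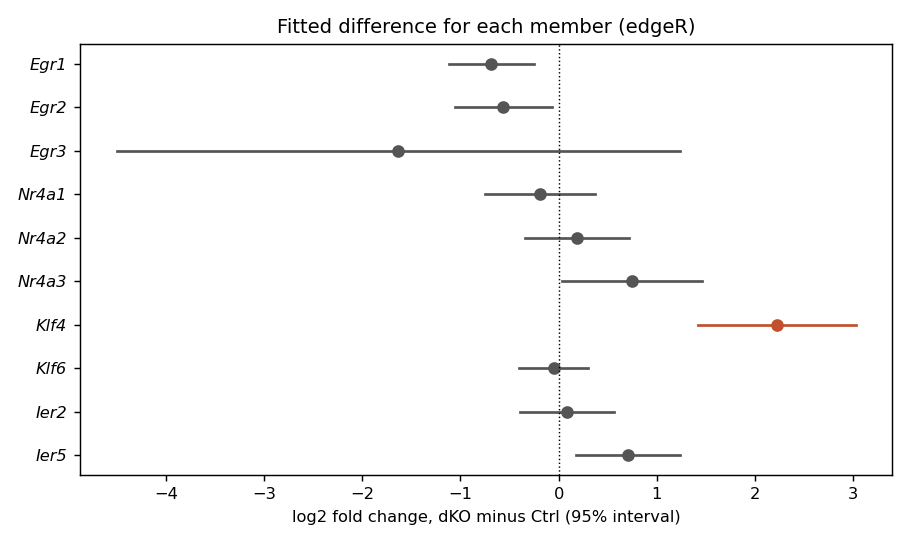
Fitted log2 fold change of dKO minus Ctrl for each member (points) with its 95% interval (lines) from edgeR; red marks the adjusted p under 0.05. Klf4 is the only red point, the intervals of Egr1, Egr2, Nr4a3 and Ier5 lie to 1 side of 0 without adjustment, and Egr3 has the widest interval.

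Some pairs of genes were set against each other within each library, where scaling cancels; the pairs were chosen after their values were seen and carry no test. The log2 ratio of Egr1 to Fos counts was -1.004 and -1.22 in Ctrl against -2.86 and -3.24 in dKO. The mean ratio differed by -1.94 between the groups, with no overlap. The log2 ratio of Egr1 to Egr2 moved far less, at 1.77 and 1.68 in Ctrl and 1.68 and 1.53 in dKO. That of Nr4a1 to Nr4a3 was lower in both dKO libraries, by a mean difference of -0.96, and that of Egr1 to Klf4 was 5.66 and 5.31 in Ctrl against 2.90 and 2.28 in dKO.

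Likeness of pattern was measured as the distance between log2 CPM profiles over the 4 libraries, each centred on its mean, among the members and 97 other early-response genes tested. Egr1 and Egr2 were each other's nearest gene (distance 0.17). Nr4a3 was nearest to Nfil3 (0.12), which encodes a basic leucine zipper factor needed for NK development, and Klf4 was nearest to Fosb (0.74). Nr4a1 was nearest to Ier3ip1 (0.12), Nr4a2 to Rgs2 (0.15), Klf6 to Btg2 (0.10), Ier2 to Hsph1 (0.20), Ier5 to Spred2 (0.21) and Egr3 to Hspa1a (1.29). Among 7704 tested genes averaging 10 CPM or more, those nearest to Klf4 were Akr1c13 (0.12), Acbd6 (0.14) and Syap1 (0.36). Their log2 fold changes were 2.24, 2.125 and 1.91, beside 2.22 for Klf4. With only 4 libraries a near gene is easily found among so many, so nearness shows no link to Klf4. Distances are smaller between genes that vary little, so they cannot be compared between members.

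Other genes of the early-response network were counted by list, and the lists were chosen with earlier results of these data known. Among all tested genes, 0.316% were called higher, 0.295% were called lower and 10.6% had an unadjusted p under 0.05. Of 9 tested AP-1 genes, whose products pair as Fos and Jun dimers, 3 rose (Fosb, Fos and Jun, with log2 fold changes of 2.95, 1.26 and 1.10 and edgeR adjusted p of 0.00790, 0.0144 and 0.0386) and 0 fell, with a median of 0.41. Fosb was at 2.00 and 2.23 CPM in Ctrl against 14.6 and 18.0 CPM in dKO, the library levels nearest in pattern to Klf4 among these lists. Jun missed the threshold without Ctrl replicate 2 (edgeR adjusted p = 0.0575) or dKO replicate 1 (0.0633). Of 10 MAP kinase phosphatases and ERK feedback genes, 1 rose (Dusp2, log2 fold change 2.13, edgeR adjusted p = 0.0286) and 0 fell, with a median of 0.34. Dusp2 was at 195 and 94.3 CPM in Ctrl against 626 and 638 CPM in dKO; leaving out dKO replicate 1 or 2 ended the call (edgeR adjusted p = 0.116 and 0.107), and its log2 fold change was 2.74 without Ctrl replicate 1.

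The lists tied to the EGR, NR4A and KLF factors had medians below that of all tested genes (0.01). The heat shock list, given below, also had a lower median (-0.30), so this was not particular to lists tied to these factors. Of 10 EGR partners and targets 0 were called, 4 of them with an unadjusted p under 0.05, and the median log2 fold change was -0.28. Id3, an inhibitor of E proteins, had -1.05 (edgeR adjusted p = 0.266) and the chemokine gene Ccl4 had -0.79 (0.385). Of 8 genes coupled to NR4A factors, 1 fell (Ikzf2, encoding Helios, log2 fold change -1.68, edgeR adjusted p = 0.0172) and 0 rose, with a median of -0.25. Ikzf2 was at 54.0 and 65.7 CPM in Ctrl against 17.3 and 20.2 CPM in dKO. Of 11 other KLF factors 0 were called (1 with an unadjusted p under 0.05), the median was -0.21, and Klf9 (-1.18) and Klf16 (-0.58) had the smallest p (edgeR adjusted p = 0.267 and 0.634). Klf11, singled out after its values were seen, had 9.63 CPM in Ctrl 1 against 60.1 in Ctrl 2, 69.7 in dKO 1 and 61.5 in dKO 2, so its log2 fold change was 0.12 without Ctrl replicate 1 and 2.77 without Ctrl replicate 2.

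Of 22 other immediate early and IER genes 0 were called, 8 had an unadjusted p under 0.05, 18 had a positive log2 fold change, and the median was 0.38. Ppp1r15a, a phosphatase subunit that relieves translational stress, had 0.91 (edgeR adjusted p = 0.101), and Nfil3 had 0.79 (0.156); DESeq2 called both (adjusted p = 0.00242 and 0.0160). Of 18 upstream factors 0 were called and 0 had an unadjusted p under 0.05, with a median of 0.16 and Crtc3 (0.32) and Crtc1 (0.41), coactivators of CREB, the lowest in p (edgeR adjusted p = 0.554 and 0.555). Of 9 heat shock genes, which rise when cells are stressed in preparation, 0 were called and 1 had an unadjusted p under 0.05; the log2 fold changes were negative for all 9, with a median of -0.30. Hspd1 (-0.47) and Hsp90ab1 (-0.45) had the smallest p there (edgeR adjusted p = 0.463 and 0.529). Over all 97 tested genes of these lists, 4 rose and 1 fell, and the median was 0.07. The shares of all tested genes were 0.316% called higher and 0.295% called lower.

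**Figure D5:**
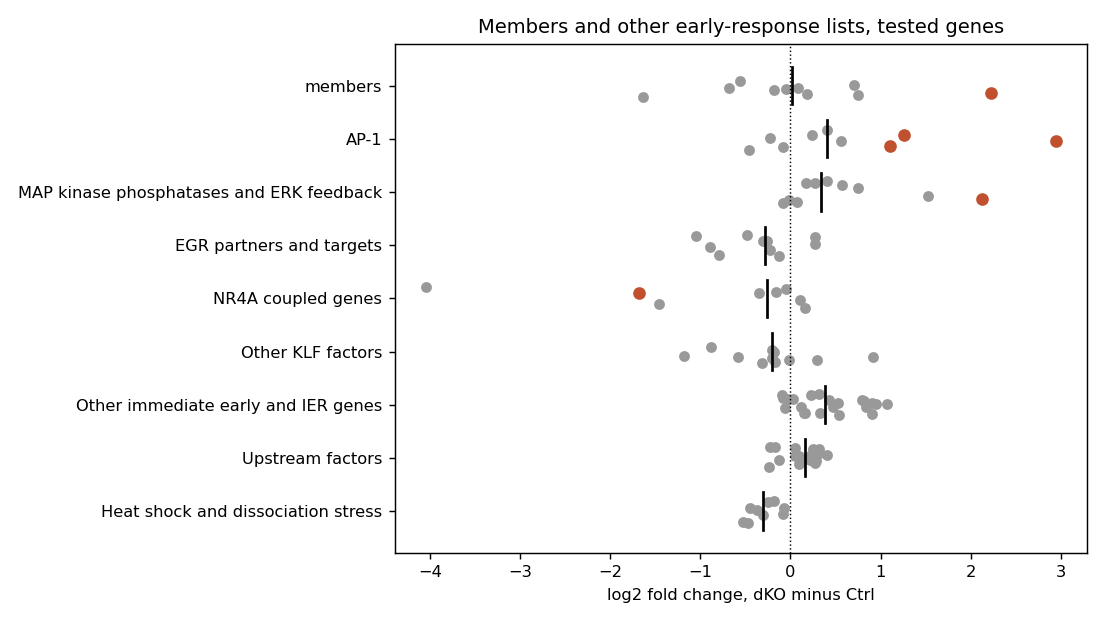
Fitted log2 fold change of dKO minus Ctrl for each tested gene of the members and of 8 other early-response lists (1 point per gene, black bar the list's median); red marks an adjusted p under 0.05. The AP-1, phosphatase and other immediate early lists have medians of 0.41, 0.34 and 0.38, and the EGR, NR4A and KLF lists have medians of -0.28, -0.25 and -0.21. The upstream factor and heat shock lists have medians of 0.16 and -0.30.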

How the data were processed

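RNA-seq was analysed in 4 libraries, 2 Ctrl and 2 dKO, grouped by the sample titles. The submitters' processing notes list the build mm9 and the tools TopHat2 2.1.1, HTSeq 0.6.1, RSEM 1.3.0, DESeq2 1.32.0, Trimmomatic 0.36 and FastQC 0.11.5. The sources used here give neither their settings, the annotation release nor whether counting used strand. Gene counts in whole numbers were deposited by the authors and, per the file headers, RSEM tables with expected counts, TPM, FPKM and gene lengths; the deposited FPKM entered no result. Rows naming no gene, of which reads outside genes were 18.1% to 24.3% and ambiguous reads 2.20% to 2.34% of all counted reads, were left out.

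Counts were tested with edgeR 4.0.16 (robust quasi-likelihood F test, TMM, minimum count 10) in R 4.3.3, with Benjamini-Hochberg adjustment over 13904 genes and a threshold of 0.05. The SE was taken from the fitted log2 fold change and its F statistic (size over root F), and intervals are 95% from the fitted degrees of freedom. An exact two-sided permutation of 2 against 2 libraries cannot go below p = 0.333, so p-values rest on spread shared across genes. Levels are CPM of the TMM library size. Profiles used log2 CPM with a prior count of 2. The procedure was tested on counts simulated with the spread fitted to these same data. Only large changes were planted, in genes that were not scarce, so scarce genes and small changes were not covered.

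Members and lists were chosen with earlier results of these data known. All members were named; in the other lists up to 4 called genes, or the 2 with the smallest p. Gene positions are GENCODE M21 (GRCm38), and start-site sequences are RefSeq on GRCm38.p6, not the build of the counts. Alternatives were other scalings and filters, DESeq2 1.42.0, limma-voom (limma 3.58.1), RSEM expected counts rounded to whole numbers, a fit that is not robust, the replicate number as a block, a threshold of 0.10 and leaving out each library.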

Additional observations from a re-analysis of the deposited data

How the results depend on the processing

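Klf4 was the 1 member called, and that count was the same under the 3 other scalings, the stricter filter, DESeq2 and the fit that is not robust; it was 2 without a filter (Klf4 and Egr1), 0 with limma-voom and 0 with the RSEM counts, and 0 to 1 when each library was left out. Calls in the other early-response lists were 5, against 12 without a filter, 9 with DESeq2 and 3 to 6 with a library left out (3 without dKO replicate 1). Calls among all genes were 85, against 559 without a filter, 148 with the stricter filter, 404 with DESeq2, 166 at a threshold of 0.10 and 73 to 187 with a library left out (187 without Ctrl replicate 2). The members' median log2 fold change was 0.38 without Ctrl replicate 1. The fits without a filter and with DESeq2 included low genes and had an all-gene median of 0.10. Over the members and their alternatives, 125 of the fold changes kept direction and side of the threshold, 5 were weaker, 1 was stronger and 7 turned, none of those called: Nr4a2 with the RSEM counts (-0.14), and, with a library left out, Egr3 (range -2.52 to 1.19, positive without Ctrl replicate 1), Nr4a1 (-0.42 to 0.012, positive without dKO replicate 2), Nr4a2 (-0.021 to 0.42, negative without Ctrl replicate 2), Klf6 (-0.17 to 0.072, positive without Ctrl replicate 2) and Ier2 (-0.14 to 0.35, negative without Ctrl replicate 2 or dKO replicate 1). The cause of these shifts was not tested. Egr3 could not be fitted with the stricter filter or the RSEM counts, which left it out. With 1 library left in a group, that library was assumed to vary like the others.

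The labels give both groups replicate numbers 1 and 2 with no sign that a number marks a shared litter or day. The deviations of Ctrl 1 and dKO 1 from their group means correlated at -0.05 across genes. With the replicate number as a block, 100 genes were called, 1 member (Klf4, adjusted p = 0.0436) and 5 other early-response genes among them.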
